A study of Mus musculus with 9 samples.

Results

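The nephron identity transcription factors are 8 genes, Hnf4a, Hnf4g, Pax2, Pax8, Tfap2b, Tfcp2l1, Grhl2 and Esrrg, taken by symbol from a table of 13081 genes. All 8 were in the table. Their RNA was compared between whole kidneys of wild-type mice of 3 months (young, 4 libraries) and of 16 months (old, 5 libraries). Per the study's methods the mice were C57BL/6 animals, fed standard chow. The labels give the age in their treatment field, name no other treatment and give both groups as wild type. The sexes of these 9 mice are not given in the sources used here. The study compared the ages to ask if processes that change in its RagC mutant mice also change in normal ageing. In libraries read from transcript ends, each gene's reads were scaled by the authors' size factor for the library (normalised counts). Depth ran from 4486406 to 6355095 reads a library.

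Kidney tubule cells are held in their state by transcription factors that each mark a stretch of the nephron. Hnf4a and Hnf4g are related nuclear receptors, and Hnf4a is known as the main driver of proximal tubule maturation. Pax2 and Pax8 are paired-box factors that act together when the embryonic kidney forms, and both stay on in adult tubules. Tfap2b is known for the distal convoluted tubule, Tfcp2l1 and Grhl2 for the collecting duct, and Esrrg, an oestrogen-related receptor, for genes of mitochondrial energy metabolism.

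The 8 factors did not move together with age. In limma with Benjamini-Hochberg adjustment over 12667 genes, 5 of 8 had an adjusted p-value under 0.05, 4 higher and 1 lower in old kidneys (genes past this threshold are referred to as called). Over all genes tested 59.7% were called, 29.2% higher and 30.5% lower, so the share of the 8 lay near that of all genes. Hnf4g and Grhl2 reached the filter of 10 normalised counts in 4 libraries only through the old group, so the filter favoured a higher level there. In young kidneys 1 library for Hnf4g and 2 for Grhl2 were at 10 or more. Among the 6 others 3 were called, with a median log2 fold change of 0.14 against 0.00 (-0.0027) over all genes and a median size of the change of 0.39 against 0.56. Values of young and old libraries did not overlap in 4 of the 8, Hnf4a, Hnf4g, Pax2 and Grhl2, where 49.0% of all genes tested had groups that did not overlap. The titles of the libraries carry 2 prefixes that follow age, so a difference in preparation or sequencing cannot be told apart from age. In bulk tissue, fewer cells of a type and less RNA per cell cannot be told apart.

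**Figure D1:**
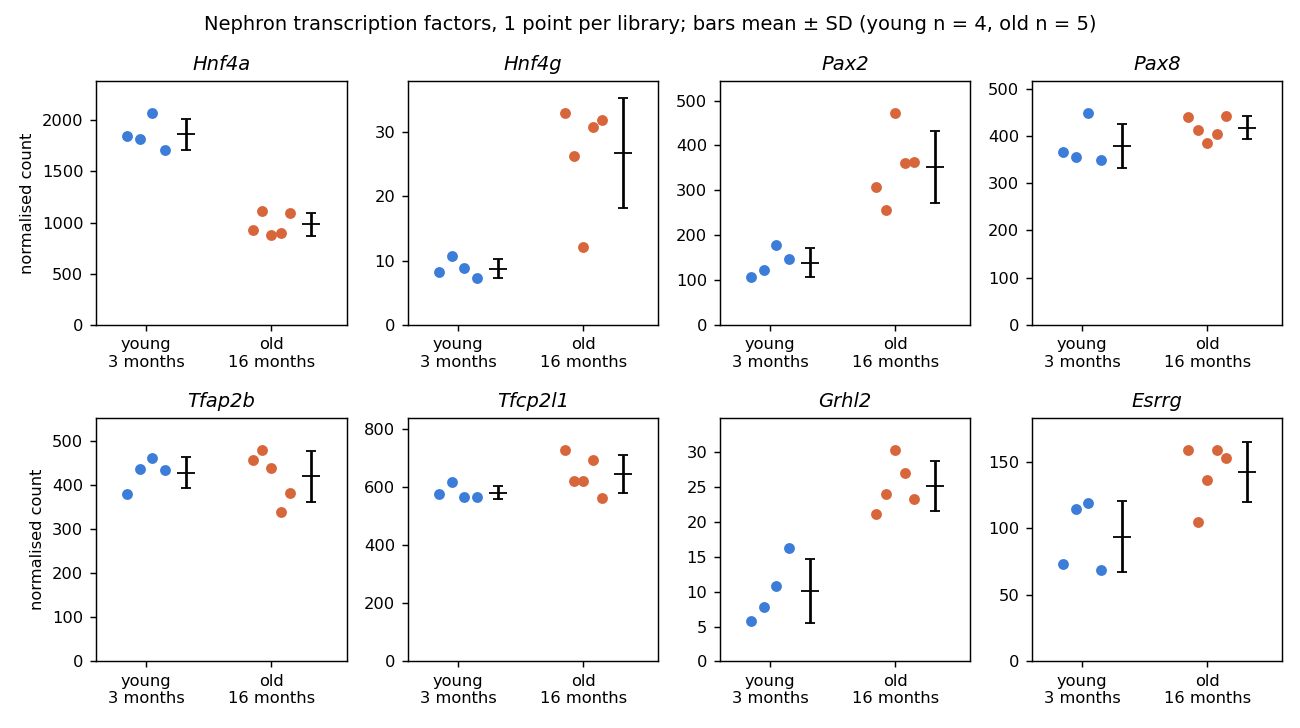
Normalised counts of the 8 factors on linear axes that start at 0, with 1 point per library for young (blue, n = 4) and old (orange, n = 5) kidneys and bars for the mean ± SD. Hnf4a stood at 1708 to 2074 in young and 879 to 1116 in old libraries, Pax2 went the other way, and Pax8, Tfap2b and Tfcp2l1 overlapped between ages.

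Hnf4a, which drives transport and metabolic genes of the proximal tubule, was the only one of the 8 called lower in old kidneys in the main test (Tfap2b and Tfcp2l1 joined it once a trend with transcript length was removed, as described further on). The young libraries held 1849, 1821, 2074 and 1708 normalised counts and the old libraries 926, 1116, 879, 895 and 1088. Every old library lay below every young library. The mean was 1863 ± 153 (SD, n = 4) in young and 981 ± 112 (SD, n = 5) in old kidneys, 1.90-fold lower in old (log2 fold change -0.93, standard error 0.10, limma adjusted p-value 2.39e-07). Hnf4a (ENSMUSG00000017950) lies on the plus strand of chromosome 2 (163506808 to 163572910, GRCm38, GENCODE vM21), and its level was above that of 97.0% of the genes tested. Hnf4aos, a long noncoding RNA on the other strand of Hnf4a that was looked at for that position, averaged 59.4 ± 8.31 and 65.8 ± 14.5 (SD) and was not called (log2 fold change 0.13, adjusted p-value 0.55 by limma).

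Hnf4g, the related receptor of the proximal tubule, was higher in old kidneys, from a very low level. The young libraries held 8.19, 10.7, 8.82 and 7.24 normalised counts, which are 10, 11, 9 and 8 reads. The old libraries held 33.0, 26.3, 12.2, 30.8 and 31.8 normalised counts, or 28, 24, 12, 33 and 30 reads. Old replicate 3 was close to the young libraries and the other old libraries were well above them. On the log2 scale the difference was 1.45 ± 0.32 (standard error), and without old replicate 3 it was 1.70. Since the filter was met through the old group alone, its p-value is given from the limma fit of all 13081 genes with no filter (adjusted p-value 0.000741). These values rest on 8 to 33 reads per library. The gene (ENSMUSG00000017688) spans 3508030 to 3658052 on chromosome 3.

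The balance within each library moved accordingly. The log2 ratio of Hnf4a to Hnf4g was 7.65, 7.28, 7.72 and 7.70 in the young libraries and 4.77, 5.36, 6.06, 4.82 and 5.05 in the old libraries. Such a ratio serves to compare libraries and does not compare the levels of the genes. Its mean was lower by 2.38 on the log2 scale in old kidneys, given without a test because Hnf4g passed the filter through the old group alone. Genes known from the proximal tubule were mostly lower as well, with 13 of 22 called lower and 5 higher (median log2 fold change -0.38). Among them, Slc22a6, which encodes an organic anion transporter, averaged 4975 ± 127 normalised counts in young and 2089 ± 181 in old kidneys (SD). Of the 5 called higher, Slc5a12 (1.63 on the log2 scale) and Lrp2 (0.95) rose most, named after their values were seen. Set against the mean log2 level of those 22 genes in the same library, Hnf4a still fell by 0.55 on the log2 scale. The p-value was 0.00794 in an exact two-sided permutation test over the 9 libraries, the smallest that this number of libraries can give (adjusted p-value 0.00952 over 6 ratios). The ratio was -0.66 to -0.40 in the young and -1.30 to -0.99 in the old libraries. By the same measure the mean of Hnf4g was 1.83 higher in old kidneys, again given without a test.

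Pax2, a paired-box factor of the developing nephron and the adult collecting duct, had the smallest adjusted p-value among the factors that were higher. Normalised counts of 106, 122, 178 and 148 in the young libraries stood against 306, 255, 473, 361 and 363 in the old libraries. Old replicate 3 was the highest of the 9, and the lowest old library was above the highest young library. From 139 ± 31.7 (SD, n = 4) the mean went to 352 ± 81.0 (SD, n = 5), 2.54-fold higher in old (log2 fold change 1.33, standard error 0.17, limma adjusted p-value 1.57e-06). The size of this change exceeded that of 86.6% of the genes tested. Pax2 (ENSMUSG00000004231) lies on chromosome 19 (44756045 to 44837871).

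Of 3 RefSeq starts of Pax2, 1 held the letters of the Grainyhead-like motif (AACCNGTT, either strand), the motif of the family of Grhl2. The 250 bases before it are shown because both Pax2 and Grhl2 are among the 8 factors (plus strand, chr19:44755502-44755751, RefSeq, GRCm38.p6), with the match in capitals.

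Pax2 second start: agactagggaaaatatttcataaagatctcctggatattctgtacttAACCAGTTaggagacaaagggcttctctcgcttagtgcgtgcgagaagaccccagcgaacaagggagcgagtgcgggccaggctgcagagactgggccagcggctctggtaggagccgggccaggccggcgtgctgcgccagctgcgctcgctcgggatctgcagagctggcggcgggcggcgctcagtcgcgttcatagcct

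The match begins 203 bases before the start, and 1.79% of the 32851 starts in the table held one. This RefSeq start lies upstream of the span given above for Pax2, which is from GENCODE vM21. A match of letters is a description and shows no binding. Of 6 motifs searched in the 12 starts of the 6 factors in the table, AP-2 (GCCNNNGGC) also matched at 1 start each of Pax2, Tfcp2l1 and Esrrg (13.7% of all starts). Matches to AAGGTCA (oestrogen-related receptors, 4.08% of all starts), CAAAGTCCA (Hnf4, 0.384%), the paired Tfcp2l1 motif (2.78%) and GTCACGC (Pax, 1.78%) were not in these windows. Hnf4g and Grhl2 are named only.

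Pax8, the close relative of Pax2, was not called. The young libraries held 365, 355, 449 and 349 normalised counts and the old libraries 441, 413, 385, 404 and 442, so the ages overlapped. Its log2 fold change was 0.14 with a 95% interval of -0.07 to 0.36 (adjusted p-value 0.24 by limma), which leaves room for a rise of about 0.36 on the log2 scale. Old libraries varied little in Pax8, with a coefficient of variation of 5.87%, against 23.0% for Pax2 in the same libraries and a median of 19.5% over all genes tested. Pax8 (ENSMUSG00000026976) lies on the minus strand of chromosome 2 (24420560 to 24475599).

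The log2 ratio of Pax2 to Pax8 was -1.78, -1.53, -1.33 and -1.23 in the young libraries and -0.52, -0.70, 0.29, -0.16 and -0.29 in the old libraries. This ratio rose by 1.19 on the log2 scale (exact permutation p 0.00794, adjusted 0.00952), so the paired-box factors changed by unequal amounts, and size factors cancel in this ratio apart from the pseudocount.

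**Figure D2:**
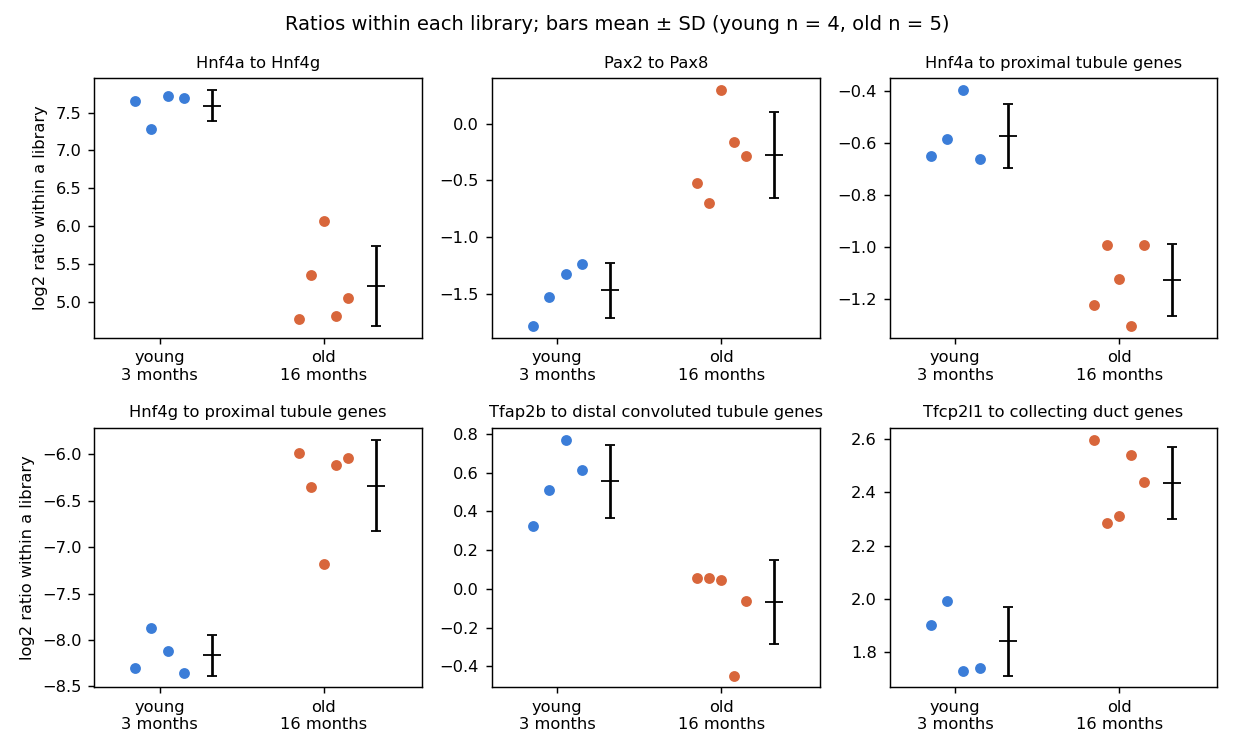
Log2 ratios within each library, 1 point per young (blue, n = 4) or old (orange, n = 5) library, with bars for the mean ± SD and axes that do not start at 0. Young and old libraries did not overlap in any of the 6 panels, and the Hnf4a to Hnf4g ratio ran from 7.28 to 7.72 in young and from 4.77 to 6.06 in old libraries. The panels with Hnf4g rest on a gene that passed the filter through the old group alone. Of all single genes tested, 49.0% had groups that did not overlap.

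Tfap2b, an AP-2 factor needed for the distal convoluted tubule, was not called. Young libraries were at 379, 435, 462 and 435 normalised counts and old libraries at 457, 480, 439, 339 and 382. The ages overlapped throughout, with a log2 fold change of -0.04 and a 95% interval of -0.27 to 0.20 (adjusted p-value 0.80 by limma). Genes of the distal convoluted tubule were mostly higher in old kidneys, with 7 of 10 called higher and 2 lower (median log2 fold change 0.65). They included Slc12a3, the thiazide-sensitive salt transporter gene (2106 ± 331 to 4295 ± 366 normalised counts, SD), and Klhl3, a regulator of that transporter (236 ± 26.1 to 519 ± 40.9, SD). The 2 called lower, named after their values were seen, were Pvalb (-0.44 on the log2 scale) and Calb1 (-0.37). Relative to the mean log2 level of these 10 genes Tfap2b fell by 0.62 on the log2 scale (exact permutation p 0.00794, adjusted 0.00952), from 0.32, 0.51, 0.77 and 0.61 in the young libraries to 0.06, 0.06, 0.05, -0.45 and -0.06 in the old libraries. Tfap2b (ENSMUSG00000025927) spans 19208914 to 19238576 on chromosome 1.

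Tfcp2l1, a CP2-family factor that patterns the principal and intercalated cells of the collecting duct, was not called either. The young libraries held 576, 615, 565 and 566 normalised counts and the old libraries 728, 621, 620, 691 and 563. One old library (replicate 5) was below all the young libraries and the others were above them. The log2 fold change was 0.15 with a 95% interval of -0.06 to 0.35 (adjusted p-value 0.20 by limma). Tfcp2l1 (ENSMUSG00000026380) lies on chromosome 1 (118627945 to 118685168) and has the longest annotated transcript of the 8, 9269 bases.

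Among principal cell genes of the collecting duct 5 of 10 were called lower, 2 higher and 3 not called, and among intercalated cell genes 8 of 13 were called lower and 2 higher. Aqp3, a water channel gene, fell from 496 ± 43.1 to 173 ± 38.4 normalised counts (SD), Hsd11b2, which protects the mineralocorticoid receptor from glucocorticoids, from 657 ± 38.8 to 365 ± 75.3 (SD), and Slc4a9, a bicarbonate transporter gene of intercalated cells, from 128 ± 22.2 to 46.2 ± 6.78 (SD). Car12, a carbonic anhydrase gene, fell from 606 ± 36.0 to 241 ± 37.2 (SD). The 4 genes called higher, named after their values were seen, were the water channel gene Aqp4 (1.70 on the log2 scale), the sodium channel subunit gene Scnn1a (0.80), the anion exchanger gene Slc4a1 (0.63) and another carbonic anhydrase gene, Car2 (0.53). The log2 ratio of Tfcp2l1 to the mean of these 23 genes was 1.73 to 1.99 in young and 2.29 to 2.60 in old libraries, a rise of 0.59 (exact permutation p 0.00794, adjusted 0.00952). This ratio was not tried with the transcript length trend removed, a step that took Tfcp2l1 itself from 0.15 to -0.34 on the log2 scale. With the summed counts of the 23 genes in place of their mean log2 level, the ratio of Tfcp2l1 to collecting duct genes rose by 0.42 and was not called (adjusted permutation p 0.0556).

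Grhl2, a Grainyhead-like factor that maintains the epithelial barrier, was higher in old kidneys at a low level. The young libraries held 5.73, 7.77, 10.8 and 16.3 normalised counts (7, 8, 11 and 18 reads) and the old libraries 21.2, 24.1, 30.4, 27.1 and 23.3 (18, 22, 30, 29 and 22 reads). All old libraries were above all young libraries, though in reads the highest young and the lowest old library were equal. On the log2 scale the difference was 1.31 ± 0.31 (standard error). As for Hnf4g, the filter was met through the old group alone, and the limma fit with no filter gave an adjusted p-value of 0.0012. Grhl2 (ENSMUSG00000022286) spans 37233036 to 37363569 on chromosome 15. Gm16136, an antisense gene that overlaps its start and was looked at for that position, averaged 15.5 ± 1.62 in young and 4.22 ± 3.76 in old kidneys (normalised counts, SD), with reads counted by strand. It passed the filter through the young group alone, and no test is given.

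Of 7 epithelial genes known as targets of Grhl2, 2 were called lower, Ovol2 and Esrp2, and 5 were not called. Ovol2, a zinc finger factor that acts downstream of Grhl2, fell from 18.3 ± 3.73 to 4.96 ± 2.42 normalised counts (SD), and Esrp2, an epithelial splicing regulator, from 111 ± 14.5 to 75.3 ± 9.62 (SD). Ovol2 passed the filter through the young group alone, where it is high. The summed level of the 7 genes was 1302 to 1658 normalised counts in young and 1255 to 1662 in old libraries.

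Esrrg, which with its relatives switches on genes of oxidative metabolism, was higher by a smaller amount. Its normalised counts were 72.9, 115, 119 and 68.8 in young and 159, 105, 136, 159 and 153 in old libraries. Young replicates 2 and 3 overlapped the lowest old library, replicate 2, and the rest were apart. On the log2 scale the difference was 0.62 ± 0.18 (standard error, adjusted p-value 0.00593 by limma), and the means differed by 1.52-fold. Esrrg (ENSMUSG00000026610) lies on chromosome 1 (187608791 to 188214885).

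The related receptor Esrra went the other way, from 363 ± 33.0 normalised counts (SD, n = 4) to 122 ± 25.7 (SD, n = 5), or -1.59 on the log2 scale (adjusted p-value 2.02e-08 by limma), while Esrrb was not called (-0.24, adjusted p-value 0.31; named as the third relative after its value was seen). Of 8 genes known as targets of these receptors 5 were called lower and 1 higher, and Esrra itself is among them. Idh3a, which encodes a subunit of isocitrate dehydrogenase, was the 1 target called higher (0.42, named after its value was seen).

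Scaling and transcript length bore on the 3 factors that were not called. Mitochondrial genes took 27.0% to 29.7% of the reads in young and 35.8% to 38.1% in old libraries, and a second scaling set equal totals without them. It moved the median of all genes up by 0.14 on the log2 scale and the called genes to 4472 higher and 3173 lower (3704 and 3864 before). Under it 6 factors were called higher and 1 lower, since Pax8 (0.28, adjusted p-value 0.0197) and Tfcp2l1 (0.29, adjusted p-value 0.0143) joined by limma. Relative to the shifted median they stood at 0.15 each, as before, and Tfap2b, at 0.11 and not called, stood at -0.03 relative to it, as before. Genes with long transcripts tended to be higher in old kidneys (Spearman's rho 0.275 between annotated length and log2 fold change across 12433 genes, which are no replicates), and 7 of the 8 factors have a longest transcript above the median of 3331 bases. With the length trend removed from each library, Tfap2b (-0.29, adjusted p-value 0.0424) and Tfcp2l1 (-0.34, adjusted p-value 0.00812) were called lower by limma, so the direction of Tfcp2l1 depended on that step. Hnf4a, Pax2 and Esrrg kept their call and direction under both, and Esrrg came nearest to the threshold (0.42, adjusted p-value 0.0484 by limma, with the length trend removed). Hnf4g and Grhl2 did too, but they entered through the old group alone, so this is no sign of stability.

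**Figure D3:**
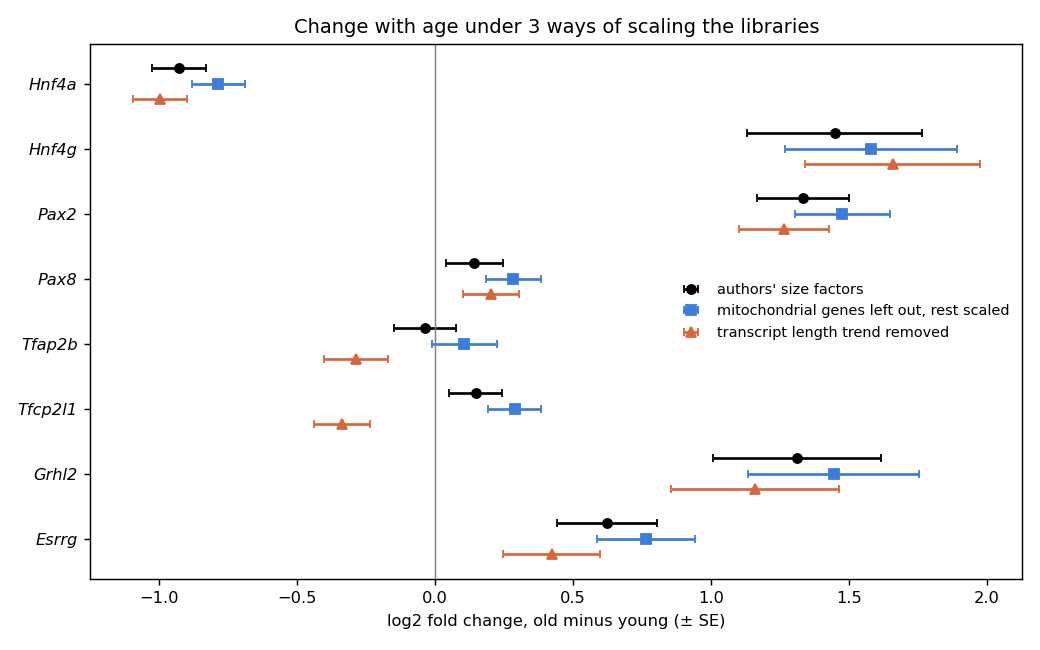
Log2 fold change (old minus young, horizontal axis) ± standard error of the 8 factors with the authors' size factors (black), with equal totals outside the mitochondrial genes (blue) and with the transcript length trend removed (orange). Hnf4a stays below 0 and Hnf4g, Pax2, Grhl2 and Esrrg above 0 in each, while Tfcp2l1 runs from -0.34 to 0.29.

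Other transcription factors known from the nephron, collecting duct and podocyte split both ways. Of 50 listed, 45 were in the table and 44 were tested, of which 9 were called higher, 13 lower and 22 not called (median log2 fold change -0.03). With mitochondrial genes left out the counts were 10 higher and 9 lower. Ppara, the receptor that drives fatty acid oxidation, rose from 147 ± 17.8 normalised counts (SD, n = 4) to 743 ± 79.3 (SD, n = 5) (log2 fold change 2.33, standard error 0.11, limma adjusted p-value 7.73e-12). Lhx1, a LIM homeobox factor that acts with Pax2 in kidney formation, rose from 187 ± 32.8 to 457 ± 26.3 (SD, 1.30 on the log2 scale). The zinc finger gene Bnc2 (1.51), the neuronal and renal bHLH-PAS gene Sim1 (1.36) and Ehf, an ETS factor of epithelia (1.29), were also higher. Ehf varied widely among old libraries (54.8 ± 36.0, SD).

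The largest falls in that list were those of Hes1, the Notch effector, Irx1, an Iroquois factor of nephron segmentation, Esrra, Osr2 and Klf15. Hes1 fell from 313 ± 24.8 to 86.4 ± 16.2 normalised counts (SD, -1.86 on the log2 scale), and Irx1 from 295 ± 61.1 to 95.9 ± 31.7 (SD, -1.65 on the log2 scale). Osr2, an odd-skipped zinc finger factor, and Klf15, a Krüppel-like factor of glucocorticoid response, had log2 fold changes of -1.51 and -1.30.

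Coactivators, corepressors and relatives of the 8 factors were called higher in 8 and lower in 3 of 18 tested (median log2 fold change 0.27). The share called was 61.1%, near the 59.7% of all genes tested. Tle4, a Groucho corepressor known to bind Pax2, rose from 74.0 ± 11.5 to 211 ± 33.2 normalised counts (SD), or 2.86-fold. Nrip1, a corepressor of nuclear receptors, rose from 238 ± 25.4 to 595 ± 66.1 (1.32), and the acetyltransferase gene Ep300 from 195 ± 20.3 to 434 ± 45.7 (2.23-fold). Ncoa2, a coactivator (0.57), was also called higher. Paxip1, an adaptor that links Pax2 to histone methylation (-1.32), and Ncoa1, a coactivator (-0.80), were lower. So was Ovol2, which passed the filter through the young group alone. With mitochondrial genes left out 12 of the 18 were called higher. With the length trend removed 3 were called higher and 3 lower, and Ncoa2 (0.14, adjusted p-value 0.39 by limma) was among those that lost their call.

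**Figure D4:**
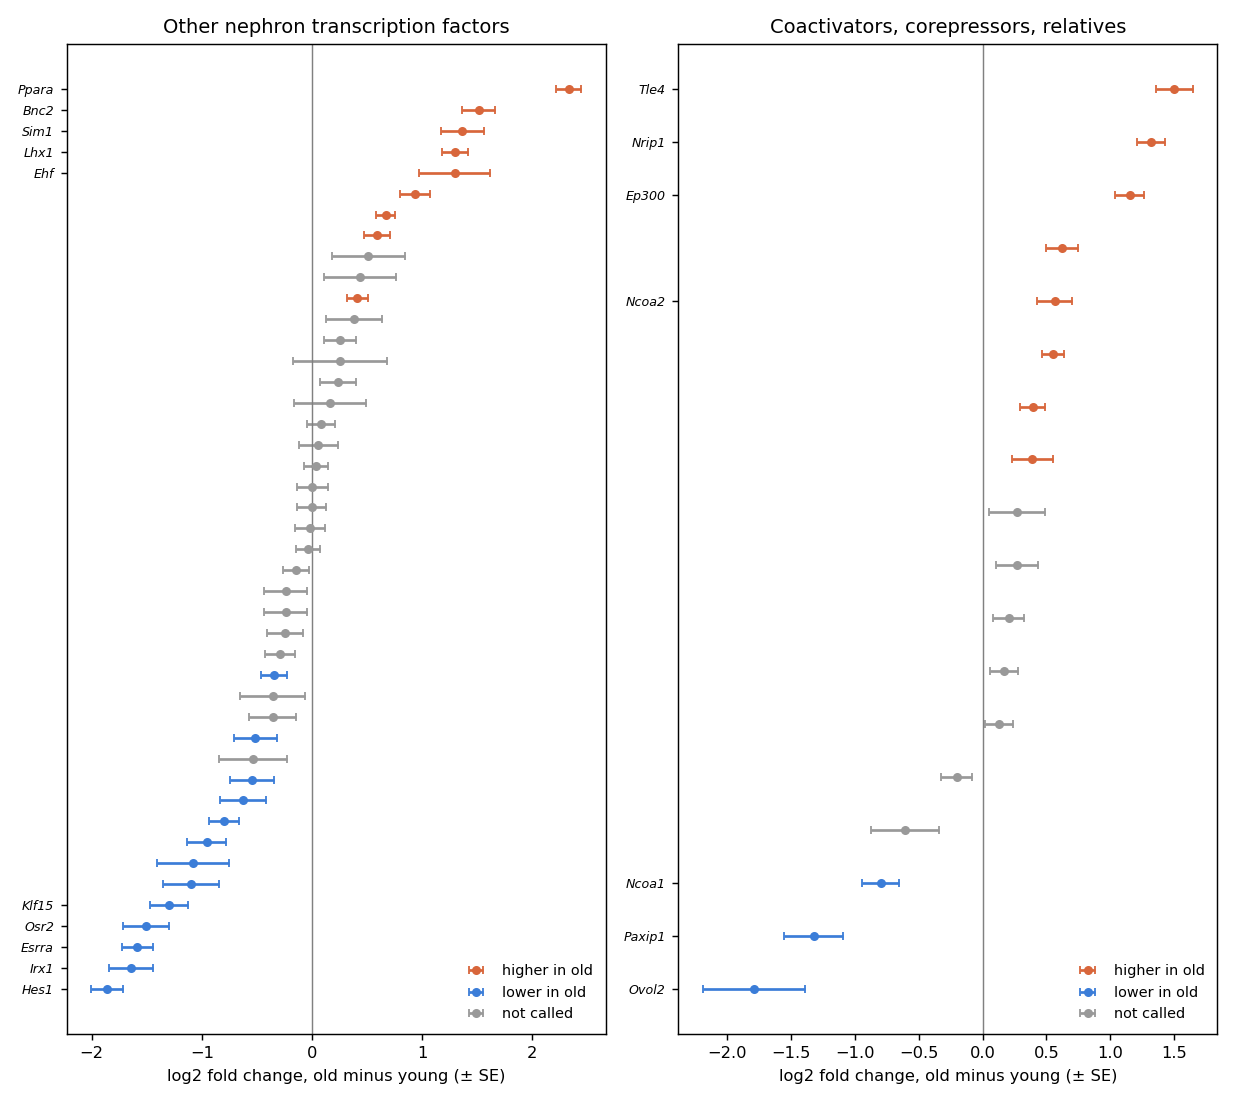
Log2 fold change (old minus young, horizontal axis) ± standard error of the 44 other nephron transcription factors (left) and the 18 coactivators, corepressors and relatives (right) that were tested, with the genes of the largest called changes labelled and points coloured by whether limma called them higher (orange) or lower (blue) in old kidneys. Ppara (2.33) and Hes1 (-1.86) lie at the ends of the left panel and Tle4 (2.86-fold higher) and Ovol2 (-1.79) at those of the right panel. Ovol2 passed the filter through the young group alone.

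Some genes followed single factors closely over the 9 libraries. By the root mean square difference of log2 values, each centred on its own mean, the nearest of all genes tested to Hnf4a was Bola2 (0.061), followed by Spata13 (0.071) and Akr1c21 (0.077). Nearest to Pax2 were Mettl8 (0.157), Galnt10 (0.187) and Rassf8 (0.189), and nearest to Esrrg were Snx14 (0.121), Map3k5 (0.127) and Errfi1 (0.133). Pax8 lay nearest to Ppp1r12c (0.057), Tfap2b to Gtf2f2 (0.054) and Tfcp2l1 to Ctsd (0.059). Hnf4g and Grhl2, with few reads, had no neighbour within 0.17 (Nfil3 at 0.227 and 2700029L08Rik at 0.176). All share the libraries and the split by age, and a near profile is a description only.

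Markers of the nephron and of other cells moved alongside. Thick ascending limb genes were called higher in 2 and lower in 2 of 9 tested (Egf from 1633 ± 128 to 3394 ± 649 and Cldn10 from 1793 ± 112 to 611 ± 78.5 normalised counts, SD). Podocyte markers were called higher in 4 and lower in 2 of 7 (Synpo 0.99, Podxl -1.45), and tubular injury markers in 2 and 2 of 8 (Vim -0.67, and Sox9 1.54, which passed the filter through the old group alone), with Havcr1, Lcn2 and Krt20 not among the genes of the table. Endothelial markers were called higher in 4 of 8 (Pecam1 0.76, Ehd3 0.51), with summed levels of 1527 to 1725 normalised counts in young and 1913 to 2125 in old libraries. Macrophage markers were called higher in 4 and lower in 1 of 8 (Cx3cr1 1.17, and Mrc1 1.66, which passed the filter through the old group alone), with summed levels of 541 to 628 and 592 to 836. The macrophage marker called lower was C1qc (-0.83, named after its value was seen). Of 8 genes listed for lymphocytes 2 were in the table, with summed levels of 27.5 to 48.3 and 76.4 to 113. The 1 tested, Ptprc, which all leukocytes carry, was higher (1.37) and made up most of that sum, and the T cell gene Cd3e was below the filter, so this list does not show lymphocytes apart from other leukocytes. Fibroblast markers were called lower in 4 and higher in 1 of 6 (Col1a2 -1.01, Col3a1 -1.19), with summed levels of 1563 to 1941 and 860 to 1483. The 1 called higher was Pdgfra (0.84, named after its value was seen). Adipocyte markers varied widely within both ages, with summed levels of 271 to 1456 and 56.9 to 1114, and 1 of 4 tested was called lower (Fabp4 -1.89) although the median of the 4 lay above 0. None of 6 adrenal cortex markers was among the genes of the table. The part of these cells in the changes of the 8 factors was not tested.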

How the data were processed

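Kidney RNA of 9 wild-type mice (4 young, 5 old) was sequenced from transcript ends. The labels and the study's methods both give an oligo-dT kit for 3' ends and differ in its version. Per the study's methods and the submitters' processing notes, the authors aligned reads to GRCm39 with TopHat2 2.0.10, counted them by strand with HTSeq 0.6.1 on GENCODE vM26 and normalised with DESeq. The table deposited by the authors holds a signal, namely gene counts over a size factor. With the smallest positive value of a library taken as 1 read, 100% of values were whole multiples (tolerance 0.001), giving 4486406 to 6355095 reads in each library. No gene averaged under 4.49, and the rule that removed rarer genes is not given in the sources used here.

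Groups followed the age in the labels, and replicate numbers follow listing order. The labels do not say how libraries were batched, and p-values measure the spread between these libraries. The test was limma 3.58.1 (eBayes with a trend, R 4.3.3) between the ages on log2(normalised count + 1), for genes that reached 10 normalised counts in 4 or more libraries, adjusted by Benjamini-Hochberg over all genes tested. This scale understates changes of genes with low counts. Ratios within libraries were tested by exact two-sided permutation (6 ratios, of which the 2 with Hnf4g are given without a p-value). The factors and gene lists were chosen with earlier results of these data known. Genes named are the 8 factors, the 5 largest called rises and falls in the lists of other factors and of cofactors, at most 2 genes by moderated t in each other list, and the 3 nearest profiles of each factor, not all of which are named. Exceptions are stated, and some genes that the rule covers and 1 list are not reported here. Alternatives were pseudocounts of 0.1 and 5, no filter, a minimum mean of 100, TMM factors, table totals, mitochondrial genes left out, robust eBayes, the recovered reads in edgeR 4.0.16 (7649 genes called) and in DESeq2 1.42.0 (7532 genes called), a lowess length correction and leaving out each library. Scripts were tested on simulated data.

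Positions and transcript lengths are from GENCODE vM21 on GRCm38, not the build the authors used, matched by symbol for 12833 of 13081 genes (98.1%). In that annotation no other gene covers the 3' end of any of the 8 factors. Start sequences are from RefSeq on GRCm38.p6, where 6 of the 8 factors matched.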

Additional observations from a re-analysis of the deposited data

Results flagged for a closer look

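In 106 groups of 4 or 5 libraries, 8 had a highest or lowest library set well apart. The measure was the distance to its neighbour over the whole spread of that age. Chance picks out about 1 group in 20, here 5.3.

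Of the 8 factors, 1 was among them. Old replicate 3 had a log2 value of 3.72 for Hnf4g while the remaining old libraries ran from 4.77 to 5.09 (0.767 of the spread). The ratio of Hnf4a to Hnf4g in young replicate 2 was 7.28 against 7.65 to 7.72 in the other young libraries (0.843). The ratio of Tfap2b to distal convoluted tubule genes in old replicate 4 was -0.45 against -0.06 to 0.06 in the other old libraries (0.767). Among other factors and cofactors, Sim1 in young replicate 4 (0.853) and Ep300 in young replicate 1 (0.838) were low, and Tle4 in young replicate 3 (0.876) was high. Pecam1 in young replicate 4 (0.835) and Cx3cr1 in old replicate 5 (0.809) were also high.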

How the results depend on the processing

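Hnf4a, Pax2 and Esrrg kept their call and direction under each alternative. Hnf4g and Grhl2 did so wherever they were tested, but with a filter they entered through the old group alone, so this is no sign of stability. Their log2 fold changes were -0.79 at the weakest for Hnf4a and ran from 1.16 to 1.70 for Hnf4g, 1.22 to 1.48 for Pax2, 1.04 to 1.55 for Grhl2 and 0.42 to 0.76 for Esrrg. A minimum mean of 100 normalised counts tests fewer genes and leaves out Hnf4g and Grhl2. It gave 4101 genes called (7568 in the main test), 3 called factors (5) and 2 called higher (4). With the length trend removed 3 factors were called lower (1), and Tfcp2l1 turned to -0.34. Tfap2b changed sign with mitochondrial genes left out (0.11, a scaling that moves the median of all genes up by 0.14, relative to which Tfap2b stood at -0.03) and without old replicate 4 (0.038) or young replicate 3 (0.0021), in each case without a call, and ran from -0.092 to 0.038 when 1 library was left out. The ratio of Tfcp2l1 to collecting duct genes was 0.42 and not called with summed counts. No ratio was tried with the length trend removed. The cause of the other changes was not tested.

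Leaving out 1 library gave 6756 to 7561 genes called, 5 to 5 called factors, 4 to 4 higher and 1 to 1 lower, and the 4 ratios without Hnf4g kept their call. Young and old libraries did not overlap in these ratios, so leaving out 1 library could not change their call. Of 47 genes that the naming rule covers and that are reported here, 43 kept call and direction under each alternative, and 4 (Pax8, Tfap2b, Tfcp2l1 and Ncoa2) did not. Depth limits Hnf4g and Grhl2 most among the nephron identity transcription factors, at 7 to 33 reads per library. No paired analysis was possible because the titles give no replicate numbers shared between the ages.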
